A study of Mus musculus with 14 samples.

Results

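Cell cycle and mitosis genes were followed across 14 mouse ovary libraries as a set of 45 named genes, taken as the rows of the deposited expression table whose symbol was on the list. The table held 56748 genes, and 18006 of them passed a filter on low values (an FPKM of at least 0.5 in at least 3 libraries) and were tested. All 45 members were found in the table and all 45 passed that filter. By their best known role, 17 members act in S phase, when DNA is copied, and 28 act in mitosis, when the copies are separated. FPKM counts sequenced fragments for each kilobase of a gene and divides by the depth of the library, so it can be compared between genes.

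RNA was sequenced from ovaries of female mice of the C57BL/6J strain with a wild-type (WT) genotype, which all groups shared. At day 7 there were 3 control libraries and 4 libraries from mice given dextran sulfate sodium (DSS), a polymer that inflames the colon, and at day 89 there were again 3 control and 4 DSS libraries. The series text places the earlier day at the end of DSS modelling and the later one after 89 days of rest. The sources used here give neither the dose of DSS nor the age of the mice. Separate animals are not stated either, and the p-values then measure only the spread between libraries, which may be technical. Ovary is the labelled tissue but the protocol text mentions retinas, so markers of both were read. All 15 oocyte, 12 granulosa, 10 luteal and 6 theca markers passed the filter. Of 10 retina markers 1 passed, and no retina marker exceeded an FPKM of 7.22 in any library. Retina markers summed to an FPKM of 3.71 to 7.67, against summed granulosa markers of 917.3 to 3870.

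Passage through the cell cycle is driven by waves of transcription. Genes for DNA synthesis are switched on at the start of S phase by E2F transcription factors, which bind short sites rich in C and G once the retinoblastoma protein has released them, and genes for mitosis are switched on later through a sequence called CHR (cell cycle genes homology region), often with CCAAT boxes that bind NF-Y. In the ovary most dividing cells are granulosa cells of growing follicles, luteal cells have largely left the cycle, and oocytes are arrested in meiosis but store transcripts such as cyclin B for the divisions to come.

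Promoters were read first, because the S phase and mitotic members are known for different control sequences and their levels are compared below. RefSeq promoters on GRCm38.p6 were matched by symbol for 38 of the 45 members, 15 of S phase and 23 of mitosis, giving 40 promoters, each a window of 300 bases from 250 before to 50 after a start. Both strands were searched for 4 E2F words (TTTCCCGC, TTTCGCGC, TTTGCCGC and TTTGGCGC), for the CHR word TTTGAA and for the NF-Y box CCAAT. An E2F word stood in 37.5% of the 16 S phase promoters, in 4.17% of the 24 mitotic promoters and in 2.26% of all 32851 promoters. The CHR word stood in 70.8% of the mitotic promoters, in 12.5% of the S phase promoters and in 17.9% of all promoters. Boxes of NF-Y were found in 79.2% of mitotic, 62.5% of S phase and 37.4% of all promoters, and a CHR word together with an NF-Y box in 66.7%, 12.5% and 6.95%. These matches describe letters and not bound sites, and a promoter without a match says nothing of the factor.

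**Figure D1:**
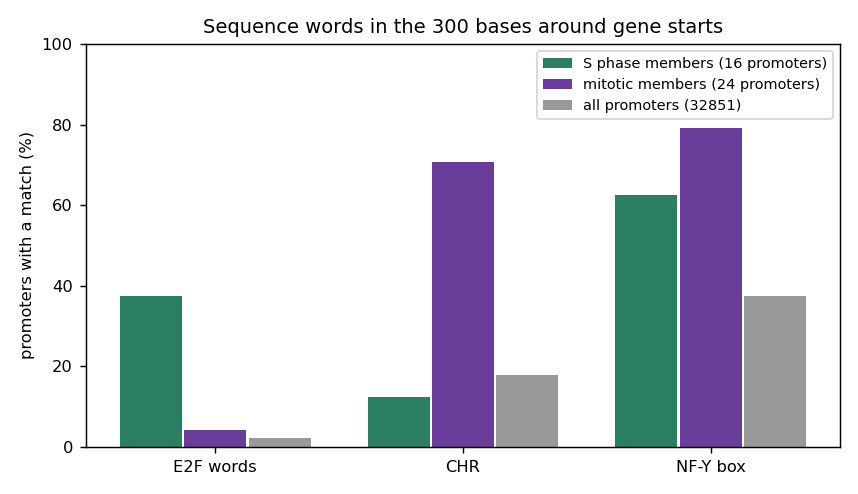
Share of promoters, in percent, that hold at least 1 match to the E2F words, the CHR word or the NF-Y box within 300 bases around the gene start, for S phase members, mitotic members and all RefSeq promoters. The E2F bar is tallest for S phase members (37.5%) and the CHR bar is tallest for mitotic members (70.8%).

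The 250 bases before the start are printed here, 5′ to 3′ along the gene's own strand, for 5 members on which the comparisons below turn, with every matched word in capitals and the distance counted from the word's first printed base to the start. Mcm5 (chr8:75109259-75109508, plus strand) holds E2F words on both strands that overlap, at 153 and 149 bases, and NF-Y boxes at 77 and 22. Cdc20 (chr4:118437344-118437593, minus strand) has NF-Y boxes at 53 and 8 bases, with the CHR word between them. Prc1 (chr7:80294226-80294475, plus strand, the later of its 2 starts) has an NF-Y box at 62 and the CHR word at 30. Ccnb1 (chr13:100786487-100786736, minus strand) has NF-Y boxes at 99 and 67 and no CHR word, and Birc5 (chr11:117848987-117849236, plus strand) has no match to any of the words.
Mcm5: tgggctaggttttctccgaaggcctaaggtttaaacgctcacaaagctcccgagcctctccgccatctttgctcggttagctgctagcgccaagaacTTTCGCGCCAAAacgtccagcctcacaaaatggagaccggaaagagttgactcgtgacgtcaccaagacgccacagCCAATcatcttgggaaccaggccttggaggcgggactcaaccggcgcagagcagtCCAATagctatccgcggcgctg
Cdc20: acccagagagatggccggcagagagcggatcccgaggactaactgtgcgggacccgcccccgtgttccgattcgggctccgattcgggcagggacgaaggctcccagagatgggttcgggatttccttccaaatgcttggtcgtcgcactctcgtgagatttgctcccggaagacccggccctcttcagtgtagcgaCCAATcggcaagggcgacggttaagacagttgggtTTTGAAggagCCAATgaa
Prc1: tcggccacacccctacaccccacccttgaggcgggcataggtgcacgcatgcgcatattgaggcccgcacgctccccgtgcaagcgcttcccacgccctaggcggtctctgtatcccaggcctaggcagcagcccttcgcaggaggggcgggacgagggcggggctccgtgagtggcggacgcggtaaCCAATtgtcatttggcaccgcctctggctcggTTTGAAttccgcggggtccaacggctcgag
Ccnb1: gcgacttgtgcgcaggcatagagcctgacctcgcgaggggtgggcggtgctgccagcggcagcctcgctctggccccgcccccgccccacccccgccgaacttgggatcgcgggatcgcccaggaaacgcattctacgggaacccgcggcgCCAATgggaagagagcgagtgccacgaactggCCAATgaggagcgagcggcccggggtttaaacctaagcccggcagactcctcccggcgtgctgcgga
Birc5: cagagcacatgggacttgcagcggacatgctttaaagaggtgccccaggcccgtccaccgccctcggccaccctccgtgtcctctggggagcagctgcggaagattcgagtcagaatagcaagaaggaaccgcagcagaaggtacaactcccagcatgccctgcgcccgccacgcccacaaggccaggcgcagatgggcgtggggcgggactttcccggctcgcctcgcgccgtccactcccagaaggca
Among these, Mcm5 shows the E2F type, Cdc20 and Prc1 the CHR and NF-Y type, and Ccnb1 and Birc5 show that mitotic members described below with large changes do not all hold the CHR word.

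Whole gene spans in the GENCODE annotation of GRCm38, matched by gene ID, were Ccnb1 (ENSMUSG00000041431) at chr13:100778650-100786570, Cdc20 (ENSMUSG00000006398) at chr4:118432901-118437352, Mcm5 (ENSMUSG00000005410) at chr8:75109569-75128439 and Cdt1 (ENSMUSG00000006585) at chr8:122568015-122573554. They were likewise Mcm7 (ENSMUSG00000029730) at chr5:138164583-138172422, Plk1 (ENSMUSG00000030867) at chr7:122159439-122169873, Prc1 (ENSMUSG00000038943) at chr7:80294450-80316259 and Birc5 (ENSMUSG00000017716) at chr11:117849251-117855743.

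Depth was 15256018 to 18505144 reads per library, recovered from the FPKM steps, and the lowest read count behind any member in any library was 45. In 3 libraries of day 7 mitochondrial genes took far more of the reads than elsewhere: 9.96% in control 10, 12.2% in control 53 and 14.2% in DSS 75, against 0.479% to 4.04% in the other 11. Results at day 7 are therefore given with and without them. In bulk ovary, fewer dividing cells and less of these RNAs per cell cannot be told apart.

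All 45 members were expressed at moderate levels. The highest mean FPKM over the 14 libraries was 28.5 for Pcna, the sliding clamp of DNA polymerase, followed by 22.2 for Mcm7, 22.04 for Mcm6 and 21.8 for the mitotic cyclin gene Ccnb2. Those 4 ranged over 16.14 to 46.28, 17.49 to 28.89, 13.99 to 29.49 and 14.93 to 36.91 in single libraries, so their order does not separate them. At the other end stood Cdc6 at 1.96, Ndc80 at 2.05 and Ccne1 at 2.31, again with overlapping ranges. The median of the means was 9.15 for the 17 S phase members and 7.42 for the 28 mitotic members.

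To compare libraries, each member's log2(FPKM + 1) was centred on its mean over the 14 libraries and averaged over the S phase or the mitotic members. On that scale the S phase level was -0.25, -0.15 and -0.24 in the day 7 controls and -0.47, 0.31, 0.40 and 0.40 in DSS 75, 80, 81 and 82. The mitotic level was -0.13, -0.21 and -0.22 in the same controls and -0.37, 0.32, 0.29 and 0.46 in those DSS libraries. Thus 3 of the 4 day 7 DSS libraries were the highest of all 14 on both levels, while DSS 75 was the lowest of all 14. At day 89 the S phase level was 0.16, -0.23 and 0.05 in controls R123, R124 and R126, and 0.05, -0.15, -0.05 and 0.16 in DSS R29, R38, R78 and R89. The mitotic level was 0.23, -0.36 and -0.02 in those controls and 0.02, -0.23, 0.01 and 0.20 in those DSS libraries, so the day 89 groups overlapped fully on both.

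The S phase level minus the mitotic level stayed between -0.11 and 0.13 in every library. Its group means were -0.03 ± 0.09 (SD, n = 3) in control and -0.02 ± 0.10 (n = 4) in DSS at day 7, and 0.04 ± 0.11 (n = 3) and 0.00 ± 0.07 (n = 4) at day 89. Differences between groups in this balance were smaller than the spread between libraries of a group. Between libraries of a group, the S phase level and the mitotic level each had a pooled SD of 0.26 log2. That SD is of the averaged level and does not describe the spread of single members.

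**Figure D2:**
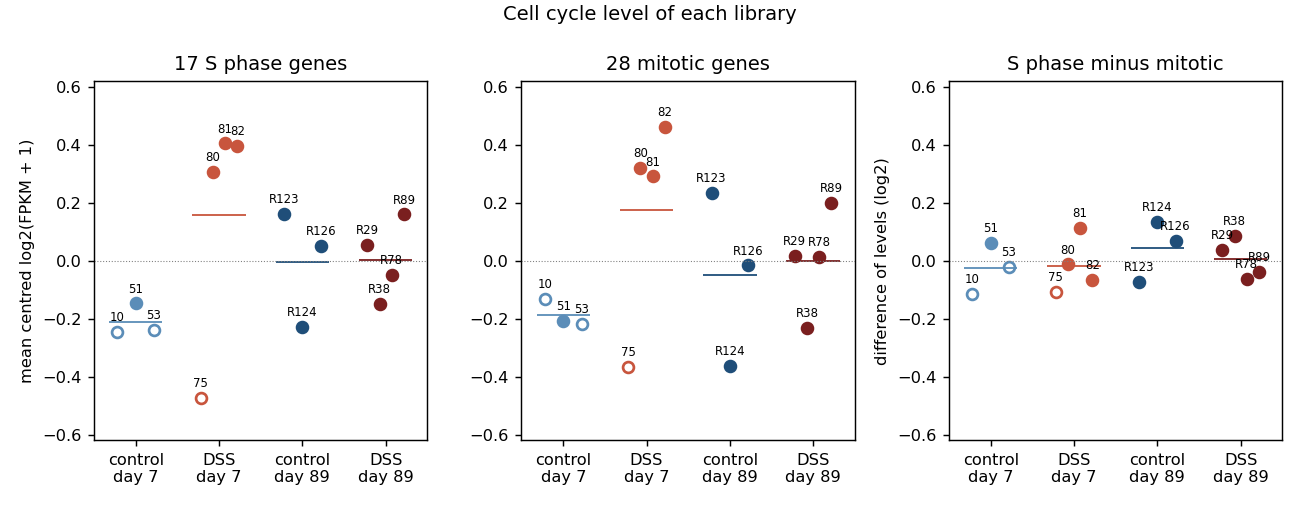
Mean centred log2(FPKM + 1) of the 17 S phase genes, the 28 mitotic genes and the difference of both, for each library (points, with library numbers) by group (horizontal lines are group means). Open points are the 3 libraries with 9.96% to 14.2% mitochondrial reads. DSS 80, 81 and 82 lie at 0.29 to 0.46, DSS 75 lies at -0.47 and -0.37, and the difference stays between -0.11 and 0.13.

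The comparison of DSS with control at day 7 asks how the ovary stood when DSS treatment ended. The mean log2 level was higher in DSS for 44 of the 45 members, and none of the 45 passed limma's test at an adjusted p of 0.05. In the same fit 0.0333% of all 18006 genes passed (6 genes, 0.0278% lower and 0.00555% higher), and 50.6% of all genes were above 0. An unadjusted p below 0.05 was reached by 14 of 45 members (31.1%), against 16% of all genes, and limma's voom on the recovered reads also called none, with a smallest adjusted p of 0.108. The median log2 fold change was 0.31 for the S phase members (0.07 to 0.77) and 0.40 for the mitotic members (-0.17 to 1.07), beside 0.00 for all genes. Groups without overlap, with DSS higher, were seen for 4 members (8.89%: Ccnb1, Cdt1, Mcm7 and Kif20a), against 6.24% of all genes, and none with DSS lower, against 5.87%. Kif20a shares 29.3% of its exon bases with Cdc23 on the opposite strand. The mean FPKM of Cdc23 was 3.88 ± 1.45 (SD, n = 3) in the controls and 5.03 ± 1.46 (n = 4) in DSS.

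Among the S phase members, Cdt1, which loads the replicative helicase onto origins, had the smallest p. Its FPKM was 6.28, 4.58 and 4.11 in the controls 10, 51 and 53, and 7.33, 7.78, 9.17 and 10.50 in DSS 75, 80, 81 and 82. Every DSS library was above every control, and the means were 4.99 ± 1.14 (SD, n = 3) and 8.70 ± 1.44 (n = 4). The log2 fold change was 0.70 (limma SE 0.20, adjusted p = 0.14). Cdc6, its partner in licensing, and Gmnn, which encodes the Cdt1 inhibitor geminin, stood at log2 fold changes of 0.11 and 0.13.

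All 6 genes of the MCM helicase, the ring that unwinds DNA ahead of the polymerases, had log2 fold changes above 0, from 0.24 to 0.77. For Mcm7 the FPKM was 19.91, 18.21 and 18.12 in the controls and 21.23, 26.60, 27.41 and 28.89 in the DSS libraries, without overlap. Its log2 fold change was 0.45 (limma SE 0.15, adjusted p = 0.191). Mcm7 shares 7.25% of its exon bases with Ap4m1 and 1.45% with Cops6 on the opposite strand, and since the strand handling of the counts is not given, reads there cannot be assigned to either gene. In the controls and DSS libraries (n = 3 and 4), Ap4m1 averaged 3.99 ± 0.66 (SD) and 3.98 ± 0.40 FPKM. Cops6 averaged 28.93 ± 6.32 and 40.13 ± 5.73.
Mcm5 read 6.47, 5.03 and 4.94 FPKM in the controls, but 4.50 in DSS 75 and 10.67, 14.54 and 13.52 in the other DSS libraries. The groups overlapped through DSS 75 alone, and the log2 fold change was 0.77 (limma SE 0.31, adjusted p = 0.259). Mcm2 stood at 8.23, 6.66 and 8.30 against 7.68, 9.99, 10.61 and 11.17, a log2 fold change of 0.31 (limma SE 0.20, adjusted p = 0.476).

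At the fork itself, Pcna read 16.14, 30.15 and 26.01 FPKM in the controls and 16.67, 41.23, 46.28 and 34.73 in the DSS libraries. The high libraries were again DSS 80, 81 and 82, and the log2 fold change was 0.46 (limma SE 0.28, adjusted p = 0.442). The 4 genes of nucleotide supply (Rrm1, Rrm2, Tyms and Tk1, which make the DNA precursors) lay at log2 fold changes between 0.25 and 0.33. At the G1/S transition, Ccne1 (cyclin E1) and E2f1 stood at 0.44 and 0.07.

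Of the mitotic members, Ccnb1 (cyclin B1, which with Cdk1 drives entry into mitosis) had the largest difference and the smallest p of all 45. Its FPKM was 5.82, 2.74 and 5.67 in the controls and 7.22, 10.85, 11.18 and 14.51 in the DSS libraries. Every DSS library lay above every control, with means of 4.75 ± 1.73 (SD, n = 3) and 10.94 ± 2.98 (n = 4). The log2 fold change was 1.07 (limma SE 0.27, adjusted p = 0.111). Cdk1, the kinase itself, read 7.27, 11.17 and 8.25 in the controls and 6.73, 15.12, 12.99 and 13.38 in the DSS libraries, which overlapped, with a log2 fold change of 0.37 (limma SE 0.24, adjusted p = 0.477). Ccnb1-ps, a pseudogene of Ccnb1, did not exceed an FPKM of 0.713 in any library.

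Cdc20, the activator of the anaphase-promoting complex that ends mitosis, split the DSS libraries. It read 10.30, 12.56 and 9.18 FPKM in the controls, 10.33 in DSS 75, and 22.72, 20.42 and 23.39 in DSS 80, 81 and 82. So DSS 75 lay within the controls while the other 3 lay far above them, and the log2 fold change was 0.74 (limma SE 0.24, adjusted p = 0.178). The mitotic kinase gene Plk1 had the same form, with 12.35, 10.40 and 10.08 against 12.05, 21.33, 20.45 and 18.82, and a log2 fold change of 0.66 (limma SE 0.24, adjusted p = 0.209). Ube2c, the complex's partner that attaches ubiquitin, stood at a log2 fold change of 0.48, and the spindle checkpoint genes Bub1, Bub1b, Mad2l1 and Ttk ranged from 0.24 to 0.59.

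Not every classical proliferation marker had this form. Mki67, the gene of the Ki-67 antigen, was the one member below 0, with 19.44, 15.60 and 18.68 FPKM in the controls and 15.36, 15.78, 14.59 and 17.16 in the DSS libraries. Its groups overlapped and the log2 fold change was -0.17 (limma SE 0.19, adjusted p = 0.684). Top2a, the topoisomerase that untangles mitotic chromosomes, read 10.50, 14.57 and 10.54 against 6.79, 14.75, 14.60 and 19.15, a log2 fold change of 0.14 (limma SE 0.27, adjusted p = 0.835). The direction of Top2a and Mki67 changed under some alternatives, with Top2a at -0.04 without DSS 82. Birc5 (survivin) and Cenpe, a kinetochore motor gene, both stood at 0.04.

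**Figure D3:**
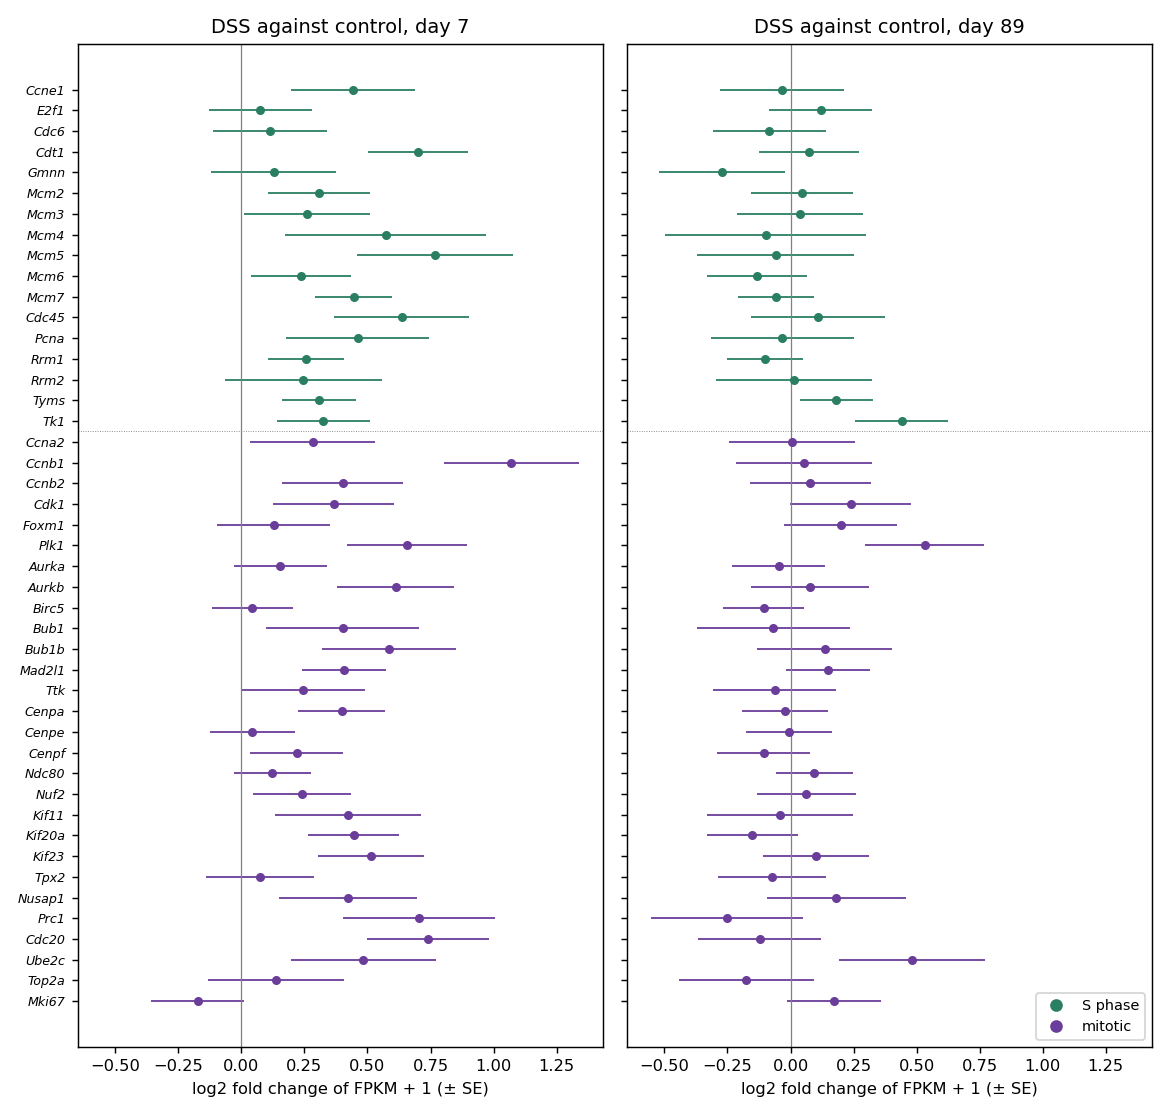
Log2 fold change of FPKM + 1 (points) with its standard error (lines) for each of the 45 members, DSS against control at day 7 and at day 89, S phase members above the dotted line and mitotic members below it. At day 7 44 points lie to the right of 0, led by Ccnb1 at 1.07, and at day 89 23 do.

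Library DSS 75 stood apart from the other DSS libraries on most members. Set against the range of the 3 day 7 controls, DSS 80, 81 and 82 were above all 3 controls for 40, 41 and 43 of the 45 members. DSS 75 was above all 3 for 4 members (Ccnb1, Cdt1, Mcm7 and Kif20a), within their range for 16 and below all 3 for 25. It held the lowest FPKM of the 14 libraries for 15 members, and DSS 82 held the highest for 20. Without DSS 75, a library singled out after its values were seen, 16 of the 45 members passed the test with DSS higher, beside 3.52% of all genes, and none passed with DSS lower, beside 3.35%. These were 7 of the S phase and 9 of the mitotic members. This fit sets DSS 80, 81 and 82, at 3.48% to 4.04% mitochondrial reads, against controls 10, 51 and 53 at 9.96%, 1.66% and 12.2%. High share is then found among the controls only, so DSS and the share cannot be fully told apart in it.

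With DSS 75 left out, the S phase members past the threshold were Cdc45, Mcm5, Mcm4, Ccne1, Pcna, Cdt1 and Mcm7, with log2 fold changes from 0.54 for Mcm7 to 1.10 for Mcm5 (limma SE 0.22, adjusted p = 0.0157). The mitotic members were Aurkb, Cdc20, Ccnb1, Prc1, Kif11, Mad2l1, Plk1, Ccnb2 and Kif23. Aurkb, the kinase of the chromosomal passenger complex, had the smallest adjusted p at 0.00935 in limma (log2 fold change 0.87, SE 0.15), and Ccnb1 the largest difference at 1.24 (limma SE 0.27, adjusted p = 0.0206). The median log2 fold change was then 0.54 for S phase and 0.54 for mitotic members.

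The mitochondrial share was high in DSS 75 and in 2 of the 3 controls. Among the controls, library 51, at 1.66%, had a mitotic level of -0.21, between those of control 10 (-0.13 at 9.96%) and control 53 (-0.22 at 12.2%). On the S phase level, library 51 lay above both, at -0.15 against -0.25 and -0.24. Control R124 of day 89 had the lowest share of all, 0.479%, and a mitotic level of -0.36, beside -0.37 in DSS 75. Its S phase level was -0.23, beside -0.47 in DSS 75. The cause of these levels was not tested. Among the 3 libraries of high share (1 DSS, 2 control) the median log2 difference was -0.27 for S phase and -0.20 for mitotic members, with 3 of 17 and 6 of 28 above 0. Among the other 4 day 7 libraries (3 DSS, 1 control) it was 0.53 and 0.46, with 17 of 17 and 28 of 28 above 0. The first of these sets DSS 75 alone against 2 controls and so repeats its position described above. Leaving out all 3 libraries, with control 51 alone left and taken to vary like the other groups, limma called 3 members with DSS higher, beside 2.93% of all genes, and none lower, beside 2.1%. They were Ccnb1 at a log2 fold change of 1.80 (limma SE 0.32, adjusted p = 0.0262), Aurkb at 0.95 (adjusted p = 0.0368) and Kif23, a motor of the central spindle, at 1.02 (adjusted p = 0.0384). With a term for the high share in the fit, an alternative added after seeing the data, 33 of the 45 members were above 0 in place of 44, the medians were 0.19 and 0.16, and no member was called.

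Summed markers of several other cell types also lay apart between the day 7 groups, although no marker on any list passed limma's test, beside 0.0333% of all genes. The 15 oocyte markers summed to an FPKM of 188.4 to 323.5 in the controls and 377.8 to 595.9 in the DSS libraries, including DSS 75. Erythroid markers summed to 56.7 to 322.3 and 419.5 to 737.5, macrophage markers to 241.6 to 306.7 and 406.0 to 566.5, and neutrophil markers, at up to 1.07 in the controls, where Retnlg, Mpo, Elane and Cxcr2 were at 0, to 11.48 to 129.5. Luteal sums overlapped, at 2474 to 3535 and 1981 to 3072, while the mean centred luteal level was -0.24 to -0.01 in the controls and -1.31 to -0.43 in the DSS libraries. The surface epithelium level was 0.74 to 0.94 in the controls and -0.21 to 0.70 in the DSS libraries, with 7 of 8 markers below 0. Granulosa markers overlapped, with sums of 1368 to 2324 and 917.3 to 3756, and DSS 75 had the lowest granulosa level of all 14 libraries at -1.05. B cell markers summed to 10.13 to 16 in the controls and 17.41 to 28.37 in the DSS libraries. Their sums lay apart at day 89 too, at 8.28 to 9.74 and 20.09 to 56.41. So did erythroid sums, at 50.52 to 56.85 and 59.22 to 662.2. No marker on either list passed limma's test at day 89, beside 0.00555% of all genes. The part of these cells in the member values was not tested.

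**Figure D4:**
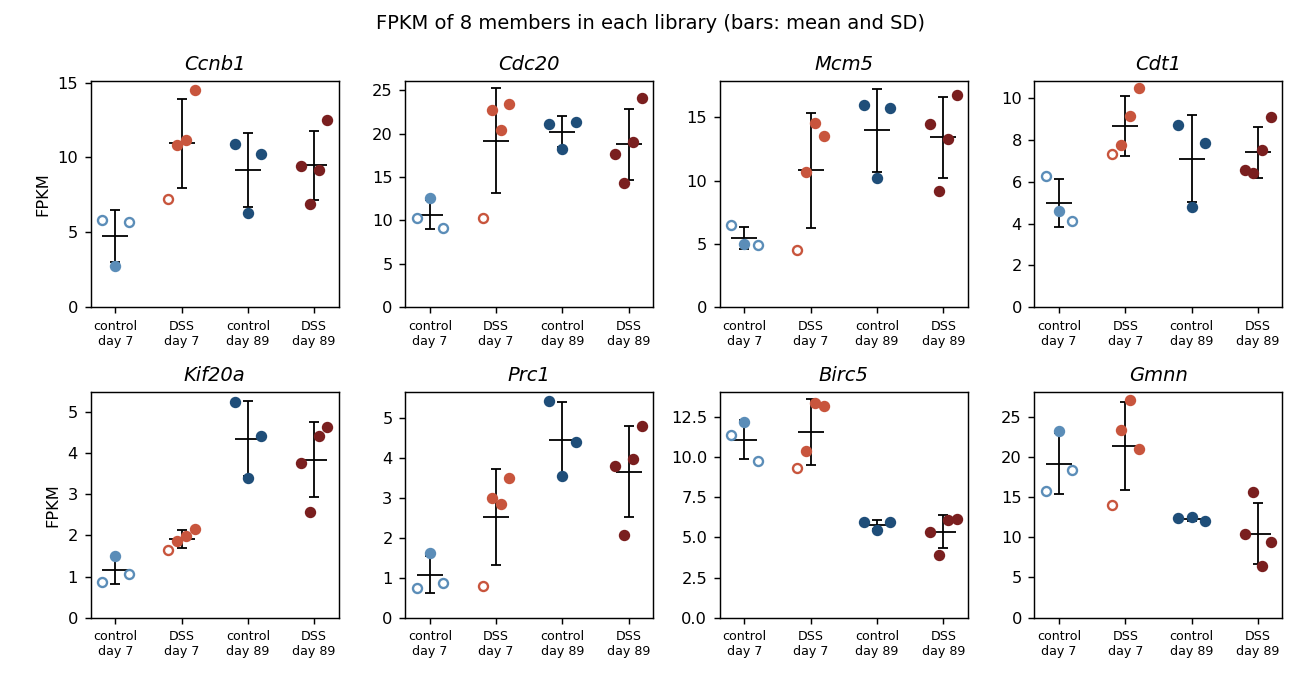
FPKM of 8 members in each library (points) by group, with group mean and SD (black bars); open points are the 3 libraries with 9.96% to 14.2% mitochondrial reads. Ccnb1 and Cdt1 have no overlap between control and DSS at day 7, Cdc20 and Prc1 have DSS 75 among the day 7 controls and Mcm5 has it below them, Kif20a is higher and Birc5 lower at day 89 in both treatments, and Gmnn is lower at day 89 with an overlap in DSS.

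At day 89, after the rest, DSS and control libraries overlapped on every member. None of the 45 members passed limma's test, beside 0.00555% of all genes (1 gene), and 2 members (4.44%) had an unadjusted p below 0.05, against 4.58% of all genes. The fold change was above 0 for 23 of 45 members and the medians were -0.03 for S phase and 0.03 for mitotic members. Single controls moved this count: 35 members were above 0 without R123 (medians 0.05 and 0.16) and 10 without R124 (-0.13 and -0.14). Among all genes 4.04% were without overlap and higher, and 4.25% lower. limma's voom likewise called none, with a smallest adjusted p of 0.914.

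Tk1, the thymidine kinase of the salvage pathway, had the smallest p. It read 4.23, 2.32 and 3.05 FPKM in controls R123, R124 and R126, and 5.33, 5.17, 4.50 and 3.59 in DSS R29, R38, R78 and R89. The groups overlapped through R123 and R89, and the log2 fold change was 0.44 (limma SE 0.18, adjusted p = 0.924). Tyms, the thymidylate synthase gene of the same supply, read 3.85, 2.54 and 2.98 against 3.68, 4.13, 3.52 and 3.25, a log2 fold change of 0.18 (SE 0.15). Gmnn was the S phase member farthest below 0, at -0.27 (SE 0.25), with 12.35, 12.51 and 12.00 in the controls and 10.35, 15.57, 6.48 and 9.46 in the DSS libraries.

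Of the mitotic members, Plk1 read 13.02, 5.70 and 10.74 FPKM in the controls and 12.95, 13.61, 12.80 and 16.70 in the DSS libraries, a log2 fold change of 0.53 (limma SE 0.24, adjusted p = 0.924). Ube2c read 13.68, 6.12 and 11.83 against 13.37, 14.90, 13.47 and 16.04 (log2 fold change 0.48, SE 0.29), and Cdk1 9.49, 5.55 and 7.44 against 8.38, 9.27, 7.72 and 10.14 (0.24, SE 0.24). In all 3 genes control R124 was the lowest library of the day. Without R124 the log2 fold changes of Plk1, Ube2c, Cdk1 and Tk1 were 0.22, 0.17, 0.06 and 0.28.

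The genes read as general markers of proliferation overlapped between treatments at day 89. Ccnb1 read 10.87, 6.31 and 10.21 FPKM in the controls and 9.41, 6.85, 9.14 and 12.48 in the DSS libraries, a log2 fold change of 0.05 (SE 0.27). Pcna read 30.01, 25.90 and 25.89 against 28.99, 25.93, 27.14 and 24.49, a log2 fold change of -0.03 (SE 0.28). Neither separated the treatments. Mcm2 read 10.21, 6.81 and 10.33 against 10.02, 6.35, 9.43 and 12.33 (0.05, SE 0.20). Mki67 read 16.81, 8.16 and 13.09 against 15.15, 11.74, 14.08 and 14.76 (0.17, SE 0.19), and Top2a 21.18, 14.25 and 15.10 against 15.91, 11.25, 15.50 and 16.24 (-0.18, SE 0.27).

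Single libraries stood apart at that day. R124 held the lowest value of the 14 libraries for 11 members and R38 for 8, 1 a control and the other a DSS library. Both were also the lowest on the oocyte level, at -1.59 and -1.12, against -0.64 to -0.03 in the other 5 day 89 libraries. Their granulosa levels, at 0.30 and 0.17, lay within the range of -0.29 to 0.80 of those other 5. DSS 75 of day 7, the lowest library on both the S phase and the mitotic level, had an oocyte level of 0.70. That was above the day 7 controls, at -0.16 to 0.43. Whether the oocyte content bears on the member values was not tested.

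The change between days was read within each treatment. In controls, 6 of the 45 members changed between day 7 and day 89, 5 of them higher and 1 lower, beside 31.8% of all genes called (16.1% higher and 15.7% lower). The share of members called was thus below that of all genes, and 14 of 45 (31.1%) had an unadjusted p below 0.05, against 43.3%. Medians were 0.22 for S phase and -0.01 for mitotic members. With the added term for high mitochondrial share the balance turned, with 1 member called higher (9.06% of all genes) and 4 lower (8.38%), and medians of -0.16 and -0.18. Groups without overlap were seen for 13 members higher (28.9%, all genes 22.8%) and 4 lower (8.89%, all genes 22.2%).

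Kif20a and Prc1, a motor and a microtubule bundler that build the central spindle of late mitosis, rose the most in the controls. Kif20a read 0.87, 1.51 and 1.08 FPKM at day 7 and 5.24, 3.41 and 4.42 at day 89, a log2 fold change of 1.31 (limma SE 0.19, adjusted p = 0.00059). Prc1 read 0.74, 1.61 and 0.88 at day 7 and 5.42, 3.55 and 4.41 at day 89, a log2 fold change of 1.40 (limma SE 0.32, adjusted p = 0.00576). All day 89 controls were above all day 7 controls for both. Kif20a shares 29.3% of its exon bases with Cdc23 on the opposite strand, whose mean FPKM was 3.88 ± 1.45 (SD, n = 3) and 7.71 ± 0.30 (n = 3) in the same groups, and the reads of the 2 genes there cannot be told apart without strand. Prc1 shares 11.1% with Rccd1, which went the other way, from 2.09 ± 0.26 to 1.16 ± 0.11 (SD, n = 3 each).

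Mcm5, Cdc20 and Ccnb1, described at day 7 above, were also higher in the day 89 controls. Mcm5 read 16.01, 10.21 and 15.72 FPKM at day 89, a log2 fold change of 1.19 against day 7 (limma SE 0.33, adjusted p = 0.0157). Cdc20 read 21.15, 18.21 and 21.40, a log2 fold change of 0.87 (limma SE 0.26, adjusted p = 0.0218). It shares 2.84% of its exon bases with Elovl1 on the opposite strand. For Ccnb1 the change was 0.84 (limma SE 0.29, adjusted p = 0.0398). With the added term for high mitochondrial share these 3 calls and that of Prc1 were lost. The log2 fold change was then 0.81 for Prc1 (limma adjusted p = 0.0597), 0.77 for Mcm5 (0.157), 0.40 for Cdc20 (0.234) and, no smaller than before, 0.87 for Ccnb1 (0.114). Without the 3 libraries, which leaves control 51 alone at day 7, Cdc20 stood at 0.64. In control 51 Mcm5, Prc1 and Ccnb1 read 5.03, 1.61 and 2.74 FPKM, below every day 89 control, so their difference between days was there without the libraries of high share. Mcm5, Cdc20 and Ccnb1 also missed the threshold without control 53, R123 or R126 (limma adjusted p from 0.0505 to 0.129), with log2 fold changes of 1.09 to 1.13 for Mcm5, 0.78 to 0.84 for Cdc20 and 0.71 to 0.97 for Ccnb1. Cdc20 missed it without control 10 as well (0.85, adjusted p = 0.0551 in limma). Ccnb1 missed it without control 51 (0.56, limma adjusted p = 0.142) and, at an unchanged 0.84, without DSS 80, 81, R29 or R78 (limma adjusted p from 0.0507 to 0.0512). Kif20a, at 1.14 with the term (limma adjusted p = 0.00637), stayed past the threshold, and it stood at 1.08 without the 3 libraries.

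Birc5, which encodes survivin of the chromosomal passenger complex, fell between days. It read 11.35, 12.18 and 9.74 FPKM in the day 7 controls and 5.94, 5.47 and 5.94 in the day 89 controls. No library of 1 day reached the other, and the log2 fold change was -0.83 (limma SE 0.17, adjusted p = 0.00349). It was -1.02 with the term for high mitochondrial share (limma adjusted p = 0.00562). The other 3 members lower with that term were Gmnn (-0.97, limma adjusted p = 0.0282, against -0.58 and 0.108 without it), E2f1 (-0.82 and 0.0358, against -0.58 and 0.0569) and Cdk1 (-0.71 and 0.0368, against -0.23 and 0.521). For the partner gene Aurkb, by contrast, the values lay the other way, with day 89 controls above day 7 controls. Its log2 fold change of 0.33 did not pass the test (limma SE 0.25, adjusted p = 0.327), and in DSS it was -0.21.

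In DSS libraries, 5 of the 45 members changed between days, 1 higher and 4 lower, beside 21.4% of all genes (10.7% in each direction), and 9 of 45 (20%) had an unadjusted p below 0.05, against 36.6%. Medians were -0.20 for S phase and -0.20 for mitotic members, and 32 of 45 members were below 0. Kif20a and Birc5 were called in both treatments in the same direction. Kif20a read 1.64, 1.87, 1.998 and 2.155 FPKM at day 7 and 3.76, 2.58, 4.42 and 4.63 at day 89, a log2 fold change of 0.71 (limma SE 0.17, adjusted p = 0.0108). Birc5 read 9.30, 10.35, 13.36 and 13.18 at day 7 and 5.33, 3.92, 6.08 and 6.14 at day 89, a log2 fold change of -0.98 (limma SE 0.15, adjusted p = 0.00182). Neither gene overlapped between days.

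The other 3 that fell in DSS were Gmnn, Cenpa and Ndc80. Gmnn read 13.99, 23.33, 27.05 and 20.94 FPKM in the DSS libraries of day 7, against the day 89 values given above, with R38 above DSS 75, and its log2 fold change was -0.98 (limma SE 0.23, adjusted p = 0.0111). In the controls, at 15.77, 23.26 and 18.41 on day 7, Gmnn changed by -0.58 without passing the test. Cenpa, the histone variant of centromeres, read 6.26, 8.97, 7.57 and 11.07 at day 7 and 5.15, 6.15, 4.88 and 5.79 at day 89, a log2 fold change of -0.52 (limma SE 0.16, adjusted p = 0.0328). Ndc80, a subunit of the outer kinetochore, read 1.81, 2.89, 3.33 and 2.55 at day 7 and 1.78, 1.64, 1.63 and 1.66 at day 89, a log2 fold change of -0.43 (limma SE 0.14, adjusted p = 0.045). Both were without overlap between days and close to the threshold. Cenpa missed it without any 1 of DSS 80, 81, 82, R29, R78 and R89 (limma adjusted p from 0.0521 to 0.0932), with log2 fold changes of -0.40 without DSS 82 and -0.56 to -0.48 without the others. So did Ndc80 (limma adjusted p from 0.0737 to 0.129), at -0.34 without DSS 81 and -0.44 to -0.39 without the others. It also missed the threshold without control 53, R126 or R38 (limma adjusted p from 0.0565 to 0.0616), at -0.43 to -0.42.

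The count in DSS libraries also turned on DSS 75. Without it 15 members were called, 1 higher and 14 lower, beside 7.27% of all genes higher and 8.23% lower. The 14 were Birc5, Gmnn, Ndc80, Cenpa, E2f1, Ube2c, Aurka, Ccne1, Mad2l1, Ccnb2, Aurkb, Cdk1, Pcna and Nuf2, with log2 fold changes from -1.16 for Gmnn to -0.46 for Mad2l1. Without all 3 libraries of high share it was 16, 1 higher and 15 lower, beside 8.72% and 10.4% of all genes. Kif20a, at 0.67, was the member called higher in both.

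**Figure D5:**
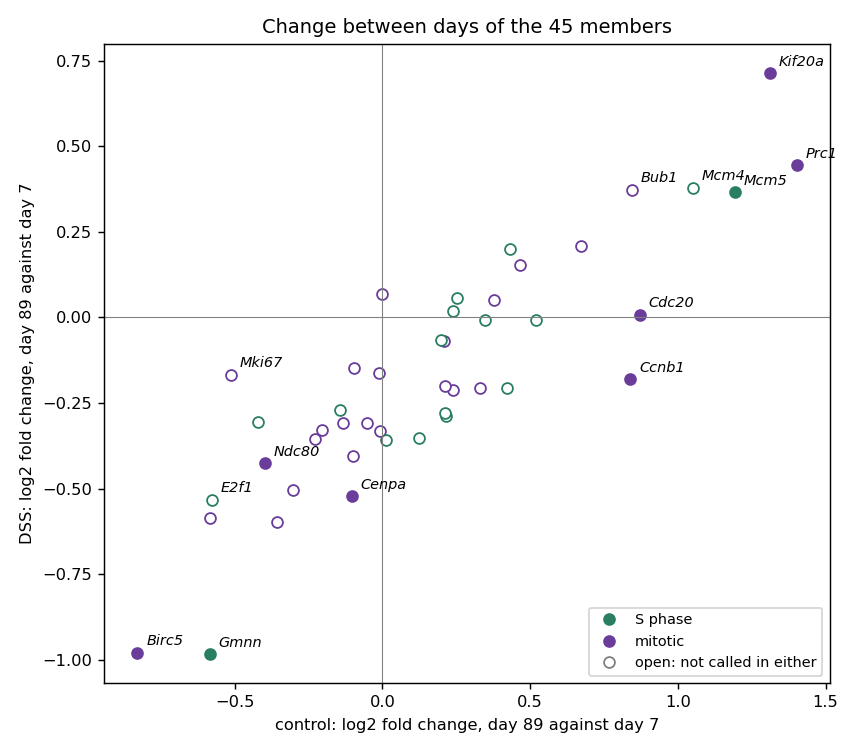
Log2 fold change of FPKM + 1 from day 7 to day 89 for each of the 45 members, controls on the horizontal axis and DSS libraries on the vertical axis, with members called in either treatment filled. Kif20a lies at 1.31 and 0.71, Birc5 at -0.83 and -0.98, and Cdc20 and Ccnb1, at 0.87 and 0.84 in controls, lie near 0 in DSS.

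For the genes that rose in controls, the group means of all 4 groups are set side by side. Cdc20 averaged 10.68 ± 1.73 (SD, n = 3) FPKM in controls and 19.22 ± 6.06 (n = 4) in DSS at day 7, and 20.26 ± 1.78 (n = 3) and 18.78 ± 4.09 (n = 4) at day 89. Mcm5 averaged 5.48 ± 0.86 and 10.81 ± 4.51 at day 7, and 13.98 ± 3.27 and 13.42 ± 3.19 at day 89, with the same numbers of libraries. The DSS difference at day 7 and the control change between days share the 3 day 7 controls, so they are set side by side only. They were 0.74 and 0.87 for Cdc20, 0.77 and 1.19 for Mcm5, 1.07 and 0.84 for Ccnb1, 0.70 and 1.40 for Prc1, and 0.45 and 1.31 for Kif20a.

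Marker levels also changed between days. In controls 15.7% of all genes fell and 16.1% rose, and in DSS 10.7% did in each direction. Beside these, 6 of 15 oocyte markers fell and none rose in controls, and 14 of 15 fell in DSS, with sums of 55.4 to 191.9 FPKM in the day 89 controls and 90.6 to 237.4 in the day 89 DSS libraries. Surface epithelium markers fell for 7 of 8 in controls and 6 of 8 in DSS. Luteal markers rose for 6 of 10 in DSS and for none in controls, where their sums were 2474 to 3535 at day 7 and 4496 to 5034 at day 89. Their part in the changes of the members was not tested.

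Whether the DSS difference itself changed between days was tested directly. The DSS difference at day 89 was below that at day 7 for 41 of 45 members, with medians of -0.37 for S phase and -0.29 for mitotic members, beside -0.01 for all genes. With the added term for high mitochondrial share it was below for 31 members, with medians of -0.16 and -0.08. When the 3 libraries of high share were left out instead, it was below for 44 members, with medians of -0.47 and -0.43. That fit keeps only a single control library at day 7. The term and the removal thus moved the medians in opposite directions. Single libraries moved the mitotic median too, to -0.46 without DSS 75 (S phase -0.58), -0.44 without R124, -0.19 without R38, -0.16 without DSS 82 and -0.14 without R123. No member and no gene of the 18006 (0%) passed limma's test of this difference. At an unadjusted p below 0.05 there were 6 of 45 members (13.3%) and 8.45% of all genes, and voom called none, with a smallest member adjusted p of 0.54. Ccnb1 had the smallest p among members, with a difference of -1.02 (limma SE 0.38, adjusted p = 0.55), followed by Cdc20 at -0.86 (limma SE 0.34, adjusted p = 0.567).

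Other genes of the same pathways, from lists that do not include the members, were counted beside them. At day 7 none of 28 other S phase genes, 44 other mitotic genes, 6 G1 cyclins and CDKs and 10 CDK inhibitors and pocket proteins passed the test, and 23 of 28 S phase and 40 of 44 mitotic genes were above 0, with medians of 0.24 and 0.21. The smallest p were those of Chaf1b, a histone chaperone of new DNA (log2 fold change 0.65, limma adjusted p = 0.138), Rfc4, of the clamp loader (0.69, 0.16 likewise), and Cks2, a Cdk1 partner that oocytes also store (0.82, 0.17). All 3, picked for their small p, had no overlap between groups. Cks2, for instance, read 41.26, 18.68 and 40.13 FPKM in the controls and 52.56, 54.01, 55.05 and 63.60 in the DSS libraries. Without overlap and higher were 5 of 28 other S phase genes (17.9%) and 4 of 44 other mitotic genes (9.09%), beside 6.24% of all genes. Without overlap and lower were 1 (3.57%) and 0 of them, beside 5.87% of all genes. Cyclin D2 gene Ccnd2, which drives granulosa cells into the cycle, read 15.91, 19.61 and 16.91 against 11.18, 19.31, 24.17 and 23.90, a log2 fold change of 0.11 (SE 0.27). Cdkn1a, which encodes the p21 inhibitor of cyclin-dependent kinases, read 13.43, 20.53 and 20.72 against 40.47, 15.62, 12.30 and 4.94, a log2 fold change of -0.31 (SE 0.51). DSS 75 held the highest Cdkn1a and the lowest Ccnd2 of the 14 libraries.

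At day 89 none of the genes on these 4 lists passed. Of the 3 with the smallest p, Cdkn1a stood farthest from 0, with 13.03, 30.10 and 26.97 FPKM in the controls and 9.33, 11.48, 5.22 and 4.22 in the DSS libraries. All DSS libraries were below all controls, and the log2 fold change was -1.52 (SE 0.51, unadjusted p = 0.0108, limma adjusted p = 0.924). Bora, an activator of Plk1 kinase signalling, was higher in every DSS library (3.03, 2.80 and 3.23 against 4.12, 4.42, 4.13 and 3.798), a log2 fold change of 0.35 (limma SE 0.11, adjusted p = 0.924). Cks2 stood at 0.62 (limma SE 0.26, adjusted p = 0.924). Ccnd2 read 28.24, 22.85 and 26.42 against 24.98, 12.15, 19.22 and 26.47, a log2 fold change of -0.36 (SE 0.27).

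Between days, 3 of 28 other S phase genes rose and 4 fell in controls, and 1 rose and 8 fell in DSS. Of the 44 other mitotic genes 2 rose and 9 fell in controls, and 11 fell and none rose in DSS. Among all genes 16.1% rose and 15.7% fell in controls, and 10.7% each way in DSS. Dut, which clears dUTP from the nucleotide pool, fell in both, from 45.18 ± 2.80 to 17.39 ± 1.81 FPKM in controls (SD, n = 3 each; log2 fold change -1.33, limma adjusted p = 0.000152) and from 36.94 ± 3.45 to 17.34 ± 1.37 in DSS (n = 4 each; -1.05, limma adjusted p = 0.000735). Cks1b, another Cdk partner, fell by 1.27 and 1.12 on the log2 scale, and Bora fell by 0.82 and 0.43. Tacc3, a spindle microtubule protein gene, fell by 0.90 and 1.07. Named after their values were seen, the S phase genes that rose in controls were Pola1, Pole2 and Fen1, the replication enzymes, at 0.85, 0.66 and 0.71. Fen1 was near the floor. Its FPKM was 0, 0.04 and 0 in the day 7 controls and 0.61, 0.51 and 0.88 in those of day 89. S phase genes that fell in controls beside Dut included Orc6 and Gins1, by 0.93 and 0.61. The mitotic genes that rose in controls were Anln at 0.68 and Ncapd2 at 0.61. Among inhibitors and pocket proteins, Rb1, the retinoblastoma gene, and its relative Rbl2 rose in controls, at 0.55 and 1.19, and Cdkn1b, which encodes p27, rose in DSS at 1.01. Of the G1 genes, Ccnd1 rose in DSS at 1.17 and Cdk4 fell by 0.41, and none passed in controls.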

How the data were processed

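The table deposited by the authors gives FPKM values per gene and library, 1 column for each of the 14 libraries, with a gene length in bases per the file headers. Alignment tool and build were HISAT2 2.0.5 and GRCm38, per the submitters' processing notes. The counter, annotation release and strand setting have no entry there: not given in the sources used here. None of the 45 members had the deposited position in the GENCODE annotation of GRCm38 (0 of 45), whereas 44 of 45 deposited lengths equalled its exon union, so positions come from that annotation. FPKM times length fell on whole multiples of 1 step for 100% of values below 300 steps, within 0.01 of a step, and these recovered reads gave the depth of 15256018 to 18505144 per library.

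FPKM was tested as log2(FPKM + 1), which understates the change of low genes, with limma 3.58.1 (limma-trend) in R 4.3.3, 1 mean per group over all 14 libraries, for the 18006 genes with an FPKM of at least 0.5 in at least 3 libraries. Adjustment followed Benjamini and Hochberg over all tested genes, and a gene passed (was called) below 0.05. On simulated data for DSS against control at day 7, with 18006 genes, 67% of 100 genes changed by 1 log2 unit and 97% of 100 changed by 2 were recovered, with 11 false calls. The changed genes were drawn from those with a mean log2(FPKM + 1) above 2, with noise independent between genes. These rates therefore do not describe lower genes, smaller changes or libraries that shift many members together. Alternatives were a pseudocount of 0.1, no filter, only the compared groups, median scaling, removal of the length trend, voom with TMM on recovered reads, each library left out, and the 3 libraries of high mitochondrial share left out or, added after seeing the data, given a term. Values in every library are given for called members, the 3 smallest p of each set in the DSS comparisons, and Mki67, Pcna, Ccnb1, Cdk1, Top2a, Mcm2, Cdkn1a and Ccnd2; other pathway genes are counted, and the 3 smallest p named. Members and lists were chosen with earlier results of these data known.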

Additional observations from a re-analysis of the deposited data

Results flagged for a closer look

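In groups of 4 libraries the highest or lowest library was set against the gap to its neighbour, and 6 of 96 groups stood out, where chance flags about 1 in 20. In 4 of them DSS 75 lay far below the other day 7 DSS libraries: Mcm4 of the replicative helicase at an FPKM of 3.02 against 13.8 to 14.41, Aurkb at 5.24 against 11.4 to 12.46, the checkpoint kinase gene Bub1b at 9.69 against 15.91 to 16.52, and the S phase level at -0.47 against 0.31 to 0.40. In the other 2, DSS R38 of day 89 was low, with the spindle protein gene Nusap1 at 4.54 against 5.40 to 5.50 and Top2a at 11.25 against 15.50 to 16.24.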

How the results depend on the processing

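The count of members called for DSS against control at day 7 was 0 as reported and 3 without the 3 libraries of high mitochondrial share, and 0 to 16 with each library left out (16 without DSS 75). The mitotic median at day 7 was 0.40, and 0.25 without DSS 82. For the change in controls between days the count was 6 (5 higher, 1 lower), 5 with the added term for the 3 libraries (1 higher, 4 lower), and 3 to 12 with each library left out. With each library left out, the mitotic median of that change ran from -0.14 to 0.13. For the change in DSS the count was 5, and 3 with no filter on low values, 3 with only the compared groups, 16 without the 3 libraries, 10 with the added term for them, and 3 to 15 with each library left out, when its medians ran from -0.31 to -0.11 for S phase and -0.38 to -0.12 for mitotic members. The S phase median of the control change was 0.22 and became -0.16 with the added term, but 0.24 without the 3 libraries. With the term, 33 of 45 members were above 0 at day 7, against 44. Among the genes named by rule, directions reversed at day 7 for Mki67 (0.0183 without the 3 libraries), and with the term for Top2a (-0.20), Cdkn1a (0.0613) and Ccnd2 (-0.15). With each library left out, day 7 values ran from -0.0371 to 0.42 for Top2a, -0.79 to 0.15 for Cdkn1a and -0.0061 to 0.34 for Ccnd2, and day 89 values from -0.0912 to 0.39 for Mki67, -0.072 to 0.0365 for Pcna, -0.17 to 0.18 for Ccnb1 and -0.13 to 0.21 for Mcm2. Ccnb1 in controls also missed the threshold at an unchanged 0.84 with no filter (limma adjusted p = 0.0853) and with only the compared groups (0.0816), and at 0.79 with the length trend removed (0.0552). Under the first and second of these Cenpa (-0.52) and Ndc80 (-0.43) in DSS missed it too, at unchanged fold changes (limma adjusted p from 0.0574 to 0.0846). The causes were not tested. No paired analysis was possible because the groups share no replicate numbers. Depth left at least 45 reads behind every member value, and 3 or 4 libraries a group limit the precision.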
